A study of Mus musculus with 8 samples.

Results

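The genes described here are 10 structural genes of the growing hair and of the sheath around it. They were chosen by symbol from the 46078 genes of the deposited count table, and all 10 were in it. Krt25, Krt27, Krt28, Krt71 and Krt73 encode keratins of the inner root sheath, Krt31, Krt35 and Krt82 encode keratins of the hair shaft, Krt75 encodes the keratin of the companion layer, and Tchh encodes trichohyalin, which is not a keratin. RNA was sequenced from cells sorted by flow cytometry out of the epidermis of Lg5-egfp-ires-creert2/R26-tdTomato mice, a strain in which cells that express the stem cell receptor Lgr5 are traced together with their progeny. All 8 libraries came from injured skin, so no uninjured group exists for comparison. By their labels 4 libraries were Treg-sufficient and 4 were Treg-depleted. Tregs are regulatory T cells, a class of T cell that restrains immune responses. The condition does not refer to Tregs among the sorted cells. The words with Tregs and without Tregs stand for these 2 conditions below. Each condition contributed replicates 1 and 2 to experiment 1 and replicates 3 and 4 to experiment 2. The sources used here do not give the way Tregs were removed, the type and timing of the injury or the age of the mice. Separate animals are not stated for the replicates, and p-values then measure only the spread between these libraries, which may be technical.

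Hair is built in concentric layers by cells that leave the base of the follicle, stop dividing and fill with keratin filaments. A keratin filament pairs a type I with a type II chain. Krt25, Krt27 and Krt28 supply type I chains and Krt71 and Krt73 type II chains to the inner root sheath, a rigid tube that moulds the shaft and breaks down before the hair emerges. The shaft has its own pairs, of which Krt31 and Krt35 are type I chains of the cortex and lower shaft and Krt82 is a type II chain of the cuticle. Krt75 is a type II chain of the companion layer, the single cell layer between the inner and outer root sheaths. Trichohyalin embeds the filaments of the inner root sheath and the medulla and is hardened by peptidylarginine deiminases and transglutaminases. Stem cells of the resting follicle are not known for high levels of these genes. In bulk RNA, fewer cells of a type and less RNA per cell cannot be told apart.

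Libraries held 22330729 to 29975347 counts over genes, and 18605 to 23062 genes had at least 1 count. Lgr5, the gene on which the tracing of cells and their progeny rests, was present in every library at 305 to 515 CPM (a gene's count scaled to a fixed library size after TMM normalization, the unit of level used throughout). The fewest genes were detected in Treg-depleted replicate 2 (18605) and Treg-sufficient replicate 3 (19593). Xist, the RNA of the inactive X chromosome, stood at 2698 CPM in Treg-sufficient replicate 2 and 76.1 CPM in Treg-depleted replicate 2, against 0.970 to 2.16 CPM in the other 6 libraries. Both of these libraries belong to experiment 1. For the differences of the tested genes of the set that are described within experiment 1, values with both of them left out are given beside the others; each condition then has 1 library in experiment 1, which is assumed to vary like the other groups.

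In the GENCODE M21 annotation of GRCm38 the type I genes lay in 1 cluster on chromosome 11 and the type II genes in 1 cluster on chromosome 15, all on the minus strand. Krt25 (ENSMUSG00000035831, chr11:99315516-99322951), Krt27 (ENSMUSG00000017588, chr11:99345565-99351104) and Krt28 (ENSMUSG00000055937, chr11:99364872-99374903) were neighbours with 8 exons each. Krt31 (ENSMUSG00000048981, chr11:100046646-100050551) and Krt35 (ENSMUSG00000048013, chr11:100092193-100096241) had 7 exons each. Krt71 (ENSMUSG00000051879, chr15:101733949-101743109), Krt73 (ENSMUSG00000063661, chr15:101793308-101802346), Krt75 (ENSMUSG00000022986, chr15:101563345-101573904) and Krt82 (ENSMUSG00000049548, chr15:101541214-101550667) had 9 exons each. Tchh stood apart on chromosome 3 (ENSMUSG00000052415, chr3:93442330-93449077, plus strand, 2 exons). Reads that aligned to several places were not counted for any gene. Of the Krt31 transcript, 78.6% matched another gene at 90% identity or more, with the longest match to Krt33a (93.5% over 1243 bases), so the Krt31 counts are uncertain. For Krt35 the share was 12.5%, and for the other 8 genes no stretch of 50 bases or more matched another transcript at that identity.

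RefSeq (GRCm38.p6) gave a promoter window, from 250 bases before to 50 bases after the start of transcription, for 9 of the 10 genes. The windows of Krt25, Krt28, Krt71 and Krt73 are shown because the levels of these 4 inner root sheath genes varied together across libraries, and that of Krt27 because it shares letters with them while its level followed theirs less closely. Capitals mark the letters TATAAA (the core of a TATA box), AGATAA (a core bound by GATA factors, of which Gata3 is known for its role in the inner root sheath) and CTTTGA or its reverse complement (a core bound by LEF1 and TCF factors). All windows are on the minus strand and are written 5′ to 3′ in the direction of the gene: Krt25 at chr11:99322902-99323201, Krt28 at chr11:99374854-99375153, Krt71 at chr15:101743048-101743347, Krt73 at chr15:101802311-101802610 and Krt27 at chr11:99351069-99351368.
Krt25: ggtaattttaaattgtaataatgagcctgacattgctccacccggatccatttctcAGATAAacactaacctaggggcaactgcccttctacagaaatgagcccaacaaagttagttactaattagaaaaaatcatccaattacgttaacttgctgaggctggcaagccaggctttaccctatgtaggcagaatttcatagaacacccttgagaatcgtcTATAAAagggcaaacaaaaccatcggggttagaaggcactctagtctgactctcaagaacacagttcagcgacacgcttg
Krt28: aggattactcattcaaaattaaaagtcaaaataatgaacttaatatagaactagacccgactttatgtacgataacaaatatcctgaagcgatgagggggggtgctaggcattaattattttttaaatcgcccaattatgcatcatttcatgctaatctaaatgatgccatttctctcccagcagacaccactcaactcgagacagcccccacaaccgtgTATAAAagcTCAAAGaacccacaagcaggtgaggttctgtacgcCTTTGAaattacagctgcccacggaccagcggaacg
Krt71: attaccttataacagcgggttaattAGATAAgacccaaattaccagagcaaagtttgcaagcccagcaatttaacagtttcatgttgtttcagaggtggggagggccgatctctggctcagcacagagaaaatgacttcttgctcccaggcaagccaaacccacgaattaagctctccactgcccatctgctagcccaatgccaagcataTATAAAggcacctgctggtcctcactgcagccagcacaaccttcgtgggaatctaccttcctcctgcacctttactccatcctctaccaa
Krt73: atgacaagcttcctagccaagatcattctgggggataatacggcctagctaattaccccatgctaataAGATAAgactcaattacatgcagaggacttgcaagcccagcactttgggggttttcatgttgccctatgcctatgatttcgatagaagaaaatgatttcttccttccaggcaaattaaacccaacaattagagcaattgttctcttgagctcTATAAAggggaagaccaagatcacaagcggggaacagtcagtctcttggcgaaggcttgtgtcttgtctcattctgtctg
Krt27: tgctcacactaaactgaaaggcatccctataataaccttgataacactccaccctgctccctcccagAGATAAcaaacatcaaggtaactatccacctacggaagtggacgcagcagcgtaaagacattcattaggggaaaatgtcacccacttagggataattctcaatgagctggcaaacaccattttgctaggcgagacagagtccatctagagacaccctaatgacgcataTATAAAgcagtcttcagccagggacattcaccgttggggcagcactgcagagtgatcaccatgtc

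Counting bases from the start of transcription, TATAAA began at position -30 in Krt25, Krt28 and Krt73, at -40 in Krt71 and at -15 in Krt27. With Krt31 (-29), 6 of the 9 windows held these letters, against 13.6% of all 32851 promoter windows of the same length searched on both strands. AGATAA was found in 5 of 9 windows, those of Krt25 (-194), Krt27 (-183), Krt71 (-225), Krt73 (-182) and Tchh (-154), against 11.2% of all windows. CTTTGA on either strand was found in 3 of 9 windows, those of Krt28, Krt31 and Tchh, against 16.0% of all windows. In Krt28 it began at position 15 and, on the opposite strand, at -21. In the Tchh window the AGATAA letters overlapped an opposite-strand CTTTGA match. The motifs were picked with the expression values known, and a match describes letters only. Krt27 thus held both the TATAAA and the AGATAA letters seen in Krt25, Krt71 and Krt73.

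Levels can be compared between genes only per length of transcript, and on that scale (CPM per kilobase of exon, mean ± SD over 8 libraries) 4 of the 5 inner root sheath genes led. Krt28 stood highest at 30.7 ± 26.7, followed by Krt71 at 17.1 ± 17.5, Krt25 at 12.7 ± 13.3 and Krt73 at 11.8 ± 12.0. Krt75 (9.08 ± 5.05), Krt27 (6.35 ± 3.03), Krt35 (4.42 ± 4.63) and Tchh (2.53 ± 1.07) came next. Neighbours in this order from Krt28 down to Tchh did not differ beyond the SD of their difference over libraries. Krt31 (0.206 ± 0.120) lay below Tchh in 8 of 8 libraries, and Krt82 (0.0216 ± 0.0480) below Krt31 in 8 of 8, both by more than that SD. Hence of the 3 shaft keratins only Krt35 was present at a level at which a change could be followed, and the set is in practice 1 of inner root sheath and companion layer genes with a single shaft keratin.

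Of the 10 genes, 9 passed a filter on low counts and entered the tests, which covered 17748 genes. Krt82 did not pass. It had 8 counts (0.293 CPM) in Treg-sufficient replicate 1, 1 count each in Treg-sufficient replicate 4 and Treg-depleted replicate 3, and 0 in the other 5 libraries. A count of 0 allows up to 3 counts, which is 0.100 to 0.142 CPM in these libraries and covers counting error only.

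**Figure D1:**
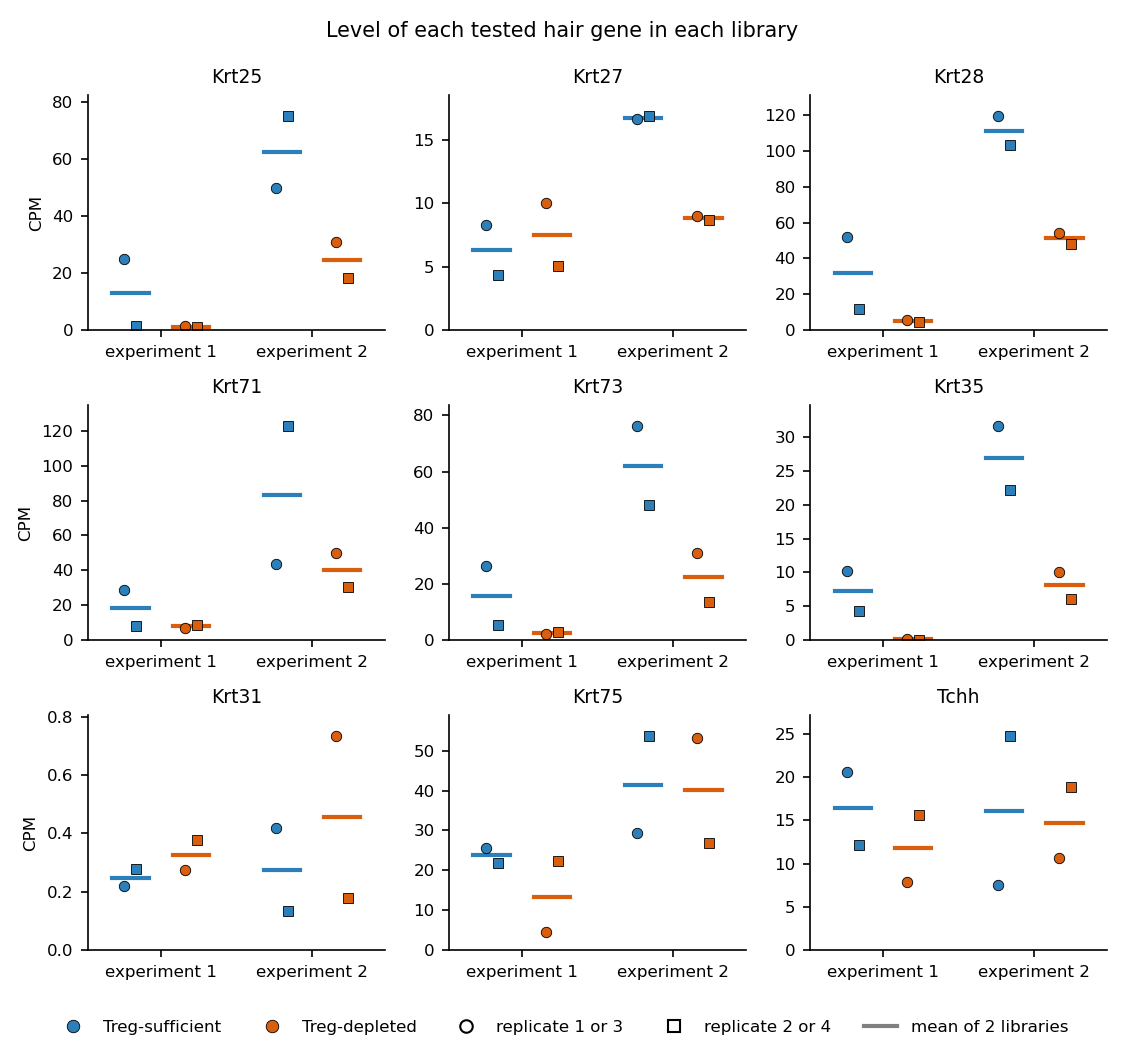
Level in CPM of each of the 9 tested genes in each library, by experiment, in Treg-sufficient and Treg-depleted libraries (points, with circles for replicates 1 and 3 and squares for replicates 2 and 4) with the mean of each pair of libraries (bar). Each panel has its own axis from 0. Krt25, Krt28, Krt73 and Krt35 were lower in both Treg-depleted libraries than in both Treg-sufficient libraries of the same experiment, whereas Krt27 was so in experiment 2 only and Krt71, Krt31, Krt75 and Tchh overlapped between conditions in both experiments.

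Without Tregs, 3 inner root sheath keratins and the shaft keratin Krt35 were lower in each experiment, by amounts that did not pass the test when the experiments were combined. Fitted over all 8 libraries with a term for the experiment, Krt35 differed by a log2 fold change of -3.05 (SE 0.760), Krt25 by -2.25 (SE 0.766), Krt73 by -2.02 (SE 0.523), Krt28 by -1.85 (SE 0.464) and Krt71 by -1.15 (SE 0.423). Krt27, Krt75 and Tchh differed by -0.34 (SE 0.333), -0.44 (SE 0.460) and -0.30 (SE 0.394), and Krt31 by 0.55 (SE 0.667). With edgeR (quasi-likelihood F-test, Benjamini-Hochberg adjustment over all genes tested, threshold 0.05), 0 of the 9 were called, with adjusted p of 0.693 to 0.877. That is also the share over the whole table, where 0% of the 17748 genes were called. At an unadjusted p under 0.05 stood 5 of the 9 (Krt25, Krt28, Krt71, Krt73 and Krt35) and 1240 of all genes (6.99%), and DESeq2 called 0 of the 9 and 87 of all genes. Without Treg-sufficient replicate 1 the differences shrank to -1.02 for Krt25, -1.32 for Krt73, -1.15 for Krt28 and -0.69 for Krt71, and that of Krt35 ran from -3.78 to -2.48 over the runs that left out 1 library. The median of the 9 log2 fold changes was -1.15, with 8 below 0, and over all genes it was -0.01, with 52.2% below 0.

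Levels overlapped between the conditions across the experiments. None of the 9 genes was lower in all 4 Treg-depleted libraries than in all 4 Treg-sufficient ones, and 1.28% of all genes were. Within experiment 1, 4 of the 9 were lower in both Treg-depleted libraries than in both Treg-sufficient ones (Krt25, Krt28, Krt73 and Krt35), and 20.7% of all genes were. Within experiment 2 this held for 5 of the 9 (the same 4 and Krt27), and for 16.7% of all genes. With 2 libraries against 2, such separation is thus common in the table.

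**Figure D2:**
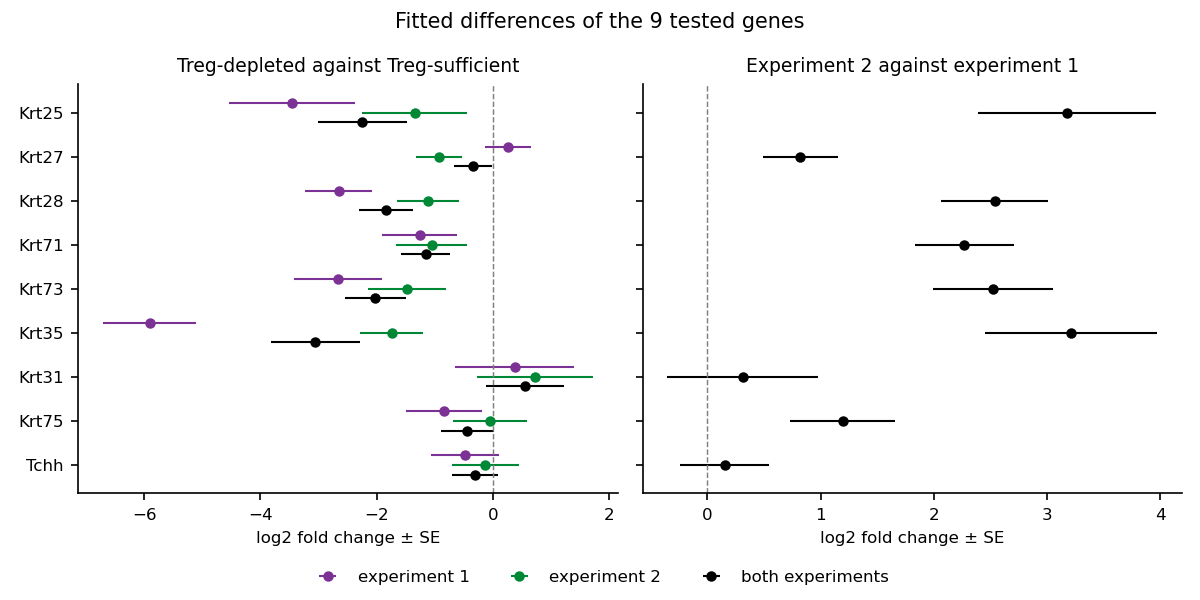
Log2 fold change ± SE of the 9 tested genes between Treg-depleted and Treg-sufficient libraries (left), within experiment 1, within experiment 2 and over both, and between experiment 2 and experiment 1 (right). Krt35 in experiment 1, at -5.91, lies farthest to the left, and all 9 genes lie to the right of 0 between experiments.

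Krt28 had the highest mean level of the set, though not beyond the spread over libraries, and showed a pattern shared with Krt25 and Krt73. In experiment 1 it stood at 51.8 and 11.8 CPM in Treg-sufficient replicates 1 and 2 and at 5.56 and 4.49 CPM in Treg-depleted replicates 1 and 2. In experiment 2 the values were 119 and 103 CPM with Tregs and 54.2 and 48.2 CPM without them. Every Treg-depleted library was thus below every Treg-sufficient library of its own experiment, while the Treg-depleted libraries of experiment 2 stood near the higher of the Treg-sufficient libraries of experiment 1. The log2 fold change was -2.65 (SE 0.580, edgeR adjusted p = 0.0984) in experiment 1 and -1.12 (SE 0.530, adjusted p = 1) in experiment 2. Without Treg-sufficient replicate 2, the library with the highest Xist level, Krt28 passed the threshold in experiment 1 (-3.36, adjusted p = 0.00605), as it did with both libraries with raised Xist left out (-3.22, adjusted p = 0.0047). Without Treg-sufficient replicate 1 the difference shrank to -1.21 (adjusted p = 0.147).

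Krt25, a type I chain like Krt28, had the widest range among the tested genes with a count in every library, with 69.0 times as much in the highest as in the lowest library. With Tregs it stood at 24.7 and 1.41 CPM in experiment 1 and at 50.01 and 75.0 CPM in experiment 2. Without them it stood at 1.26 and 1.09 CPM in experiment 1 and at 30.8 and 18.4 CPM in experiment 2. Treg-sufficient replicate 2 was therefore nearly as low as the Treg-depleted libraries of its experiment, and the difference there rested on replicate 1. In experiment 1 the log2 fold change was -3.46 (SE 1.09, edgeR adjusted p = 0.254), and it ran from -4.38 without Treg-sufficient replicate 2 (adjusted p = 0.01, past the threshold) to -0.24 without Treg-sufficient replicate 1. With both libraries with raised Xist left out it was -4.29 (adjusted p = 0.0073). In experiment 2 it was -1.35 (SE 0.908, adjusted p = 1).

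Krt73, a type II chain of the cuticle of the inner root sheath, followed Krt28 closely. Treg-sufficient libraries gave 26.5 and 5.17 CPM in experiment 1 and 76.1 and 48.1 CPM in experiment 2. Treg-depleted libraries gave 2.05 and 2.98 CPM in experiment 1 and 31.0 and 13.6 CPM in experiment 2. The groups did not overlap within either experiment. The log2 fold change was -2.66 (SE 0.750, edgeR adjusted p = 0.195) in experiment 1 and -1.48 (SE 0.676, adjusted p = 1) in experiment 2. The value in experiment 1 shrank to -1.04 without Treg-sufficient replicate 1 and grew to -3.69 (adjusted p = 0.0242) with both libraries with raised Xist left out, and that in experiment 2 ran from -2.19 without Treg-depleted replicate 3 to -0.99 without Treg-depleted replicate 4.

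Krt71, the type II chain whose mutations give mice a wavy coat, was less clearly separated. It stood at 28.8 and 8.20 CPM with Tregs and 6.85 and 8.61 CPM without them in experiment 1, where Treg-sufficient replicate 2 lay between the Treg-depleted libraries. In experiment 2 it stood at 43.6 and 123 CPM with Tregs and 49.9 and 30.2 CPM without them, and the groups again overlapped. Its highest value, in Treg-sufficient replicate 4, was also the highest CPM of any gene of the set in any library. The log2 fold changes were -1.26 (SE 0.639, edgeR adjusted p = 0.559) and -1.06 (SE 0.613, adjusted p = 1). Each rested on 1 library, since it came to -0.08 in experiment 1 without Treg-sufficient replicate 1 and to -0.12 in experiment 2 without Treg-sufficient replicate 4. With both libraries with raised Xist left out it was -2.07 in experiment 1 (adjusted p = 0.209).

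Krt27 varied less than the other 4 inner root sheath genes. In experiment 1 it stood at 8.31 and 4.31 CPM with Tregs and at 9.99 and 5.01 CPM without them, so that the groups overlapped and the fitted difference was 0.26 (SE 0.393, edgeR adjusted p = 0.914). That value turned to -0.14 without Treg-sufficient replicate 2 and to -0.34 without Treg-depleted replicate 1, and it was 0.27 with both libraries with raised Xist left out. In experiment 2 the pairs were tight and apart, at 16.7 and 16.9 CPM with Tregs and 8.98 and 8.67 CPM without them, with a log2 fold change of -0.93 (SE 0.390, unadjusted p = 0.0444, adjusted p = 1). Krt27 varied only 3.91 times between its highest and lowest library. As a share of the 5 inner root sheath genes per kilobase, Krt27 made up 44.2% in Treg-depleted replicate 1 and 27.3% in Treg-depleted replicate 2, against 16.5% in Treg-sufficient replicate 2 and 5.71 to 8.66% in the other 5 libraries. Krt28 made up 23.5% and 23.3% in those 2 Treg-depleted libraries and 33.4 to 46.0% in the other 6. The 2 Treg-depleted libraries of experiment 1 thus stood apart in their Krt27 and Krt28 shares, on which no test was made. Krt25 made up 4.35% and 4.61% in them but was as low in Treg-sufficient replicate 2 (4.21%). The Krt71 and Krt73 shares did not set the pair apart.

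Summed over the 5 genes, inner root sheath keratins reached 140.1 and 30.9 CPM with Tregs and 25.7 and 22.2 CPM without them in experiment 1. The sums in experiment 2 were 306 and 366 CPM with Tregs and 175 and 119 CPM without them. The spread between Treg-sufficient replicates 1 and 2 was wider than any spread between the paired libraries of the other groups. On log2 CPM over the 8 libraries, Krt25, Krt28, Krt71 and Krt73 had pairwise Pearson r of 0.911 to 0.978, and Krt27 had r of 0.702 to 0.770 with each of them. Those values are a description only, since the libraries share 2 experiments and 2 conditions that the genes differ between.

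Krt35, the shaft keratin, fell in experiment 1 and was the 1 gene of the set called between conditions. It stood at 10.2 and 4.27 CPM (279 and 124 counts) in Treg-sufficient replicates 1 and 2. In Treg-depleted replicate 1 it had 6 counts (0.205 CPM), and in replicate 2 it had 0 counts, which allows up to 0.142 CPM. It fell by 5.91 on the log2 scale (SE 0.804, adjusted p = 0.028 by edgeR's quasi-likelihood test), and 0.445% of all genes were called lower in this comparison (79 genes, with 43 called higher). The size of that change rests on few counts in the Treg-depleted libraries and reached -10.60 without Treg-depleted replicate 1, which leaves a group at 0 whose fitted value is no bound. The call was lost without Treg-sufficient replicate 1 (-5.14, adjusted p = 0.069), without replicate 3 (adjusted p = 0.0632) and without replicate 4 (adjusted p = 0.0568), and it was kept with both libraries with raised Xist left out (-5.61, adjusted p = 0.00594).

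In experiment 2 Krt35 was present in both conditions but lower without Tregs, at 31.6 and 22.3 CPM against 10.1 and 6.11 CPM. The groups did not overlap. The log2 fold change there was -1.74 (SE 0.542, unadjusted p = 0.0121, edgeR adjusted p = 1). No gene of the table was called in experiment 2 (0%), where 303 genes had an unadjusted p under 0.05 and DESeq2 called 3 genes, none of them in this set, and 2 of the 9 genes had an unadjusted p under 0.05 (Krt27 and Krt35). The 2 within-experiment effects on Krt35 differed by 4.17 on the log2 scale (SE 0.991, unadjusted p = 0.00285, adjusted p = 0.403). By this test of the difference itself, 0 of the 9 genes and 0% of all genes were called, while 971 genes had an unadjusted p under 0.05, and DESeq2 called 1 of the 9 and 181 of all genes.

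Krt31, the other tested shaft keratin, was near the limit of detection, with 4 to 19 counts in each library. Its values were 0.220, 0.276, 0.416 and 0.134 CPM in Treg-sufficient replicates 1 to 4 and 0.273, 0.378, 0.732 and 0.178 CPM in Treg-depleted replicates 1 to 4. The groups overlapped, and no difference was detectable at this depth (adjusted p = 0.867 over both experiments by edgeR).

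Krt75, the companion layer keratin, was present in every library. With Tregs it stood at 25.6, 21.9, 29.3 and 53.6 CPM in replicates 1 to 4, and without them at 4.40, 22.3, 53.2 and 26.9 CPM. The groups overlapped in both experiments, and Treg-depleted replicate 1 was alone at the low end. In experiment 1 the difference nearly vanished without that library (-0.10), and it grew to -2.43 without Treg-depleted replicate 2 (adjusted p = 0.0562), to -2.54 with both libraries with raised Xist left out (adjusted p = 0.0678) and, past the threshold, to -2.43 with both libraries with the fewest genes left out (adjusted p = 0.0351). Over all libraries the log2 fold change was -0.84 (SE 0.657, edgeR adjusted p = 0.769) in experiment 1 and -0.05 (SE 0.641, adjusted p = 1) in experiment 2, where it turned positive without Treg-sufficient replicate 4 (0.46) or Treg-depleted replicate 4 (0.37).

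Tchh followed neither the condition nor the inner root sheath keratins with which its protein is packed. It stood at 20.6, 12.2, 7.53 and 24.7 CPM with Tregs and at 7.91, 15.7, 10.6 and 18.8 CPM without them, in replicates 1 to 4. Treg-sufficient replicate 3, which had the highest Krt28 and Krt73 levels of all libraries, had the lowest Tchh level. The log2 fold changes were -0.48 (SE 0.581, edgeR adjusted p = 0.88) in experiment 1 and -0.13 (SE 0.577, adjusted p = 1) in experiment 2, and the second turned to 0.97 without Treg-sufficient replicate 4. With both libraries with raised Xist left out the first was -1.38 (adjusted p = 0.451). Its r with the 5 inner root sheath genes ran from -0.06 to 0.39 over the 8 libraries, again a description.

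Between the experiments, all 9 tested genes were higher in experiment 2, and 2 inner root sheath keratins passed the test. Krt28 rose from 18.4 ± 22.5 CPM in experiment 1 to 81.3 ± 35.4 CPM in experiment 2 (SD, n = 4 each), a log2 difference of 2.54 with the condition in the model (SE 0.473, edgeR adjusted p = 0.0485). Krt71 rose from 13.1 ± 10.5 to 61.6 ± 41.6 CPM, a log2 difference of 2.27 (SE 0.435, adjusted p = 0.0487). Over all genes 0.834% were called higher (148 genes) and 129 genes were called lower, and the median of the 9 was 2.27 against -0.02 over all genes. Both calls sat close to the threshold and were lost without either library with raised Xist (adjusted p of 0.0843 to 0.109), with both of these left out (adjusted p of 0.201 and 0.208) and without any of 4 other single libraries (Treg-sufficient replicate 4 and Treg-depleted replicates 1, 3 and 4), and that of Krt28 also without Treg-sufficient replicate 3 (adjusted p = 0.0686), while the log2 differences stayed between 1.94 and 3.30 in the runs that left out 1 library.

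The other 7 differences between experiments did not pass, although 3 of them were of similar size. Krt35 differed by 3.21 (SE 0.763, edgeR adjusted p = 0.0664), Krt25 by 3.17 (SE 0.785, adjusted p = 0.0706) and Krt73 by 2.52 (SE 0.530, adjusted p = 0.0552). Krt75 differed by 1.20 (SE 0.465, adjusted p = 0.185) and Krt27 by 0.82 (SE 0.334, adjusted p = 0.202). Krt31 (0.31, SE 0.667) and Tchh (0.15, SE 0.394) differed by less than their SE. Within the Treg-sufficient condition, 7 of the 9 genes were higher in both libraries of experiment 2 than in both of experiment 1 (all but Krt31 and Tchh), as were 18.7% of all genes. Within the Treg-depleted condition this held for 6 of the 9 (all but Krt27, Krt31 and Tchh), against 25.3% of all genes.

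Other keratins of shaft and sheath were mostly low. Of 17 listed, 16 were in the table, Krt85 was not analysed here, and 9 were tested, of which 0 were called in any of the 5 comparisons by edgeR. Over both experiments 6 of the 9 had a log2 fold change below 0 between conditions (median -0.43), and 4 had an unadjusted p under 0.05, as had 6.99% of all genes. Krt87, a shaft keratin, stood at 5.31 and 1.14 CPM with Tregs in experiment 1 and had 0 counts in both Treg-depleted libraries there, which makes it at least 53.2-fold lower against a floor of 3 counts over the pair (edgeR adjusted p = 0.0575, and 0.0293 to 0.115 over the runs that left out 1 library). Most of that bound comes from Treg-sufficient replicate 1, and against replicate 2 alone it is at least 19.1-fold. In experiment 2 it stood at 13.4 and 8.43 CPM with Tregs and 4.86 and 2.34 CPM without them. Krt83 and Krt86, named after their values were seen, were likewise lower in both Treg-depleted libraries of each experiment than in the Treg-sufficient ones. Such separation held for 4 of the 9 in each experiment, against 20.7% of all genes in experiment 1 and 16.7% in experiment 2. Within experiment 2, 5 of the 9 had a log2 fold change above 0 (median 0.08). Krt86 had 0 counts in both Treg-depleted libraries of experiment 1 (at least 6.57-fold lower), 0.347 and 0.249 CPM in those of experiment 2, and 0.276 to 1.17 CPM with Tregs. Shaft keratins of this family have near-identical copies, so the split of reads among them is uncertain. The most abundant of the 9 were Krt80 (67.0 CPM on average) and Krt32 (2.41 CPM), both without a difference between conditions that exceeded its SE (0.33, SE 0.437, and 0.14, SE 0.399).

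Keratin-associated proteins, which cross-link the filaments of the finished shaft, were almost absent. Of 57 such genes, 3 passed the filter, and 0 were called by edgeR in any comparison. None of the 3 had an unadjusted p under 0.05 between conditions. Over the 57 genes the summed level was 2.71 to 8.72 CPM with Tregs and 7.57 to 12.9 CPM without them in experiment 1. In experiment 2 it was 2.11 to 4.32 CPM with Tregs and 2.98 to 3.24 CPM without them. Krtap17-1 (4.45 CPM on average) and Krtap11-1 (0.329 CPM) were the highest. Krtap17-1 overlapped between conditions in both experiments (0.59, SE 0.442). It was lower in experiment 2 than in experiment 1 (-2.15, SE 0.455, edgeR adjusted p = 0.0557), opposite in direction to the tested genes of the set.

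Enzymes and proteins that harden sheath and shaft were not called between conditions. Of 18 listed, 17 were tested, and 13 of these had a log2 fold change below 0 between conditions (median -0.36), with 0 called by edgeR. An unadjusted p under 0.05 was found for 4, against 6.99% of all genes, and these are named after their values were seen. Padi4, Dsg4 and Dsc2 were lower without Tregs (-1.94, -1.59 and -0.45). Gsdma3 was higher (0.90, SE 0.222), at 15.8 to 26.5 CPM with Tregs and 25.4 to 54.3 CPM without them. The most abundant were Tgm5 (316 CPM on average) and Ctsl (105 CPM). Tgm5, a transglutaminase of the epidermis, was the 1 gene of the list called between experiments, where 0.727% of all genes were called lower. It fell from 458 ± 112 CPM in experiment 1 to 173 ± 67.2 CPM in experiment 2 (-1.41, SE 0.274, edgeR adjusted p = 0.0487), opposite in direction to the keratins. Its call was lost without any single library other than Treg-sufficient replicate 1 (adjusted p of 0.0591 to 0.153). Padi3, the deiminase that acts on trichohyalin, was named after its values were seen. It had 98 and 43 counts with Tregs in experiment 1 and 5 and 0 counts without them (-4.67, SE 0.905, edgeR adjusted p = 0.0689). Tchh itself differed there by -0.48. In experiment 2 Padi3 overlapped between conditions, at 2.69 and 4.72 CPM with Tregs and 3.47 and 2.88 CPM without them (-0.22, SE 0.666).

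Among 18 regulators of hair lineages, all tested, 14 had a log2 fold change below 0 between conditions (median -0.35). Over both experiments edgeR called 0 of them and gave 7 an unadjusted p under 0.05, against 6.99% of all genes. Within experiment 1, 1 was called, against 0.445% of all genes called lower. It was the homeobox factor Cux1, which is known from the inner root sheath. It stood at 254 and 134 CPM with Tregs and 49.2 and 29.2 CPM without them (-2.30, SE 0.378, edgeR adjusted p = 0.0462). In experiment 2 the groups overlapped, at 489 and 313 CPM against 281 and 333 CPM (-0.38, SE 0.359). The difference between these 2 effects (1.92, SE 0.514, edgeR unadjusted p = 0.00558) did not pass the test (adjusted p = 0.486). The call was lost without Treg-sufficient replicate 1 (-1.75, adjusted p = 0.185) and without Treg-sufficient replicates 3 or 4 or Treg-depleted replicates 2, 3 or 4 (adjusted p of 0.0566 to 0.082). Between experiments 2 of the 18 regulators were called higher, against 0.834% of all genes. They were Dlx3, a homeobox factor of differentiating hair cells (2.14, SE 0.360, edgeR adjusted p = 0.0449), and Shh, the signal of the hair matrix (1.62, SE 0.307, adjusted p = 0.0486). Both calls were lost without any single library other than Treg-sufficient replicate 1 (adjusted p of 0.0549 to 0.148). Dlx3 stood at 52.2 and 24.5 CPM with Tregs and 5.22 and 10.7 CPM without them in experiment 1, and at 121 and 98.2 CPM against 57.0 and 54.8 CPM in experiment 2, an order of groups like that of Krt28. The 2 most abundant regulators, Ctnnb1 (1689 CPM) and Vdr (1155 CPM), differed between conditions by -0.06 (SE 0.104) and 0.28 (SE 0.138).

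**Figure D3:**
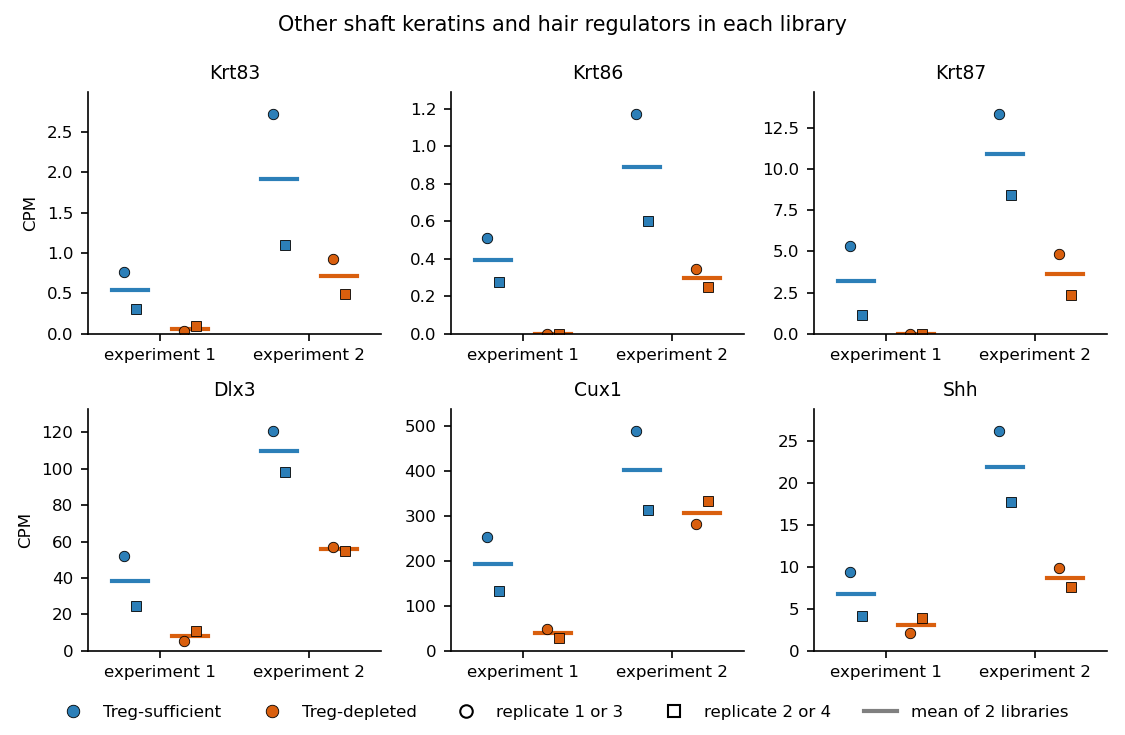
Level in CPM of 3 further shaft keratins (Krt83, Krt86, Krt87) and of 3 regulators of hair lineages (Dlx3, Cux1, Shh) in each library (points, by condition and replicate) with the mean of each pair (bar), by experiment. Krt86 and Krt87 were at 0 in both Treg-depleted libraries of experiment 1. Cux1 was lower without Tregs in experiment 1 but overlapped between conditions in experiment 2, and the difference between its 2 effects was not called.

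The companion layer and outer root sheath keratins, 10 genes that were all tested, had 10 log2 fold changes below 0 between conditions (median -0.47). Of these, 0 were called by edgeR and 1 had an unadjusted p under 0.05, as had 6.99% of all genes. Their summed level was far above that of the set described here, although Krt7 and Krt19 (1.31 CPM on average) were low. Krt5 averaged 9050 CPM and Krt15, which marks the bulge, 5724 CPM, with differences between conditions of -0.20 (SE 0.168) and -0.07 (SE 0.201).

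Genes whose levels ran most like the inner root sheath keratins were found by Pearson r with the mean log2 CPM of those 5 genes, among 14153 genes with at least 1 CPM on average over the 8 libraries. They were 5930412G12Rik (r 0.985), Zfp618 (0.981), Dlx4 (0.980), Dcn (0.976) and Nphp4 (0.971). For the mean of Krt35 and Krt31 they were Sept5 (0.977), Top3a (0.975), Krt87 (0.973), Cdkn2d (0.971) and Gm6104 (0.969). All 10 values of r rest on 8 libraries that share experiments and conditions.

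Some markers of other cell states differed between groups in the direction of the keratins, and their part in the differences was not tested. The 8 proliferation markers summed to 1430 and 1998 CPM (lowest and highest) with Tregs and 367 and 767 CPM without them in experiment 1, and to 2266 to 2640 and 2014 to 2399 CPM in experiment 2. All 8 had a log2 fold change below 0 in experiment 1 (median -1.57). Of them 1 was called, Cenpf (-2.02, SE 0.186, edgeR adjusted p = 0.0127), against 0.445% of all genes called lower. The 7 fibroblast markers, of which Dcn is 1, summed to 37.1 to 89.9 CPM with Tregs and 19.1 to 20.8 CPM without them in experiment 1, and to 69.4 to 104.5 and 48.8 to 66.9 CPM in experiment 2. Lum and Pdgfrb were at 0 in at least 1 library, and Dcn, at 28.7 CPM, was the largest part of that sum on average over both experiments. In experiment 1 Col1a2 was higher, at 16.2 CPM on average against 10.8 CPM for Dcn. All 6 tested fibroblast markers had a log2 fold change below 0 in experiment 1, but in experiment 2 Col1a2 (0.38), Col3a1 (0.68) and Pdgfra (0.62) lay above 0, and between experiments 2 of the 6 were lower in experiment 2. Of the 7 melanocyte markers 6 were higher in experiment 2, of which 4 were called (against 0.834% of all genes), and Mitf was lower (-0.53). Their sum was 58.8 to 88.6 CPM in experiment 1 and 130.0 to 394 CPM in experiment 2.

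Markers of the stem cell itself went in both directions. Their sum over 11 genes was 11752 to 16036 CPM with Tregs and 17096 to 23849 CPM without them in experiment 1, and 6873 to 7826 and 7463 to 10647 CPM in experiment 2. Postn and Krt15, at 5023 and 5724 CPM on average, made up most of that sum. Between experiments 6 of the 11 were lower in experiment 2, with Postn called (-1.90, edgeR adjusted p = 0.0458), and 5 were higher, with Tcf7l1 called (0.77, adjusted p = 0.0434). Over all genes 0.727% were called lower and 0.834% higher. Within experiment 1, Postn (1.45) and Cd34 (0.97) lay above 0 without Tregs. Lgr5 (-0.22), Lhx2 (-0.53), Sox9 (-0.14) and Tcf7l1 (-0.34) lay below 0, Lgr5 and Sox9 by less than their SE (0.230 and 0.227). None of these 6, named after their values were seen, was called. Within experiment 2, 9 of the 11 lay above 0. Over both experiments 7 of the 11 lay above 0, with 0 called by edgeR. The 3 with an unadjusted p under 0.05 (6.99% of all genes) were all higher without Tregs. They were Postn (1.16), Cd34 (1.04) and Lgr6 (0.42), Lgr6 also being named after its values were seen. The 6 dermal papilla markers summed to 32.1 to 42.1 and 20.7 to 25.3 CPM in experiment 1 and to 40.7 to 53.3 and 65.3 to 80.6 CPM in experiment 2, with and without Tregs. Prdm1, also on the list of hair lineage regulators, made up most of that sum (32.6 CPM on average), followed by Hhip (10.4 CPM). Corin, Rspo3 and Alx4 averaged only 0.807, 0.265 and 0.855 CPM. Interfollicular markers (7 genes) stood at 1574 to 1829 and 662 to 1081 CPM in experiment 1 and 454 to 764 and 696 to 913 CPM in experiment 2, and sebaceous markers (6 genes) at 154 to 324 CPM over all libraries. Markers of endothelium, T cells, macrophages, muscle and red blood cells were near 0 in every library, each list summing to at most 7.95 CPM.

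**Figure D4:**
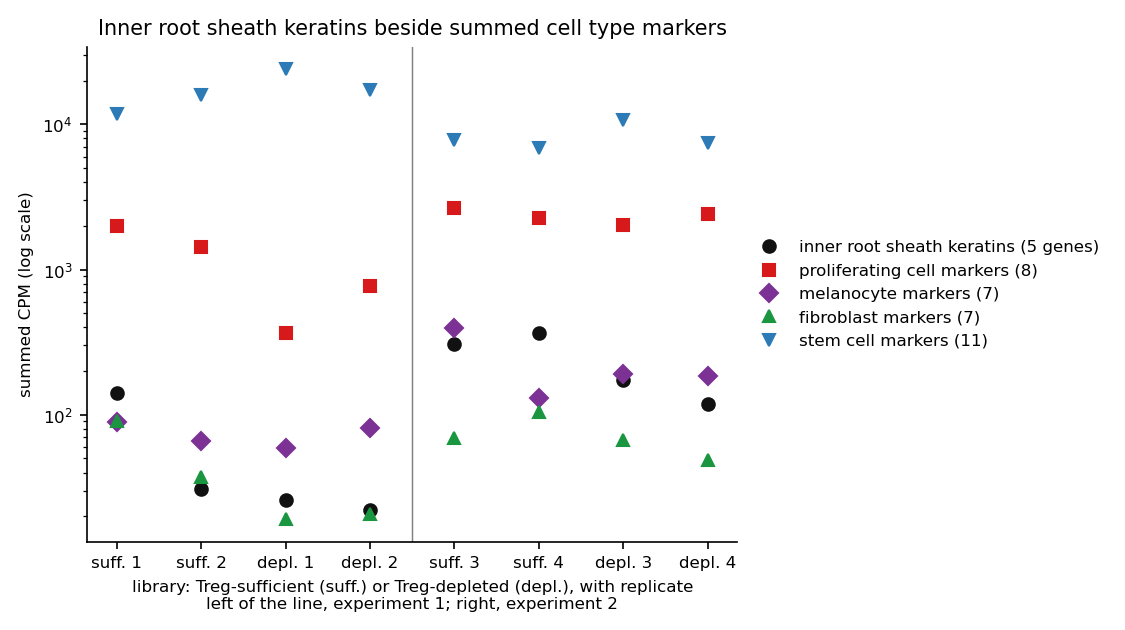
Summed CPM (log axis) of the 5 inner root sheath keratins and of 4 lists of cell type markers in each library, with experiment 1 left and experiment 2 right of the line. In the 2 Treg-depleted libraries of experiment 1 the keratins (25.7 and 22.2 CPM), the proliferation markers and the fibroblast markers were at their lowest and the sum of the stem cell markers, mostly Postn and Krt15, at its highest.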

How the data were processed

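Per the labels' protocols, RNA of sorted cells was isolated on RNeasy columns and made into TruSeq Stranded mRNA libraries. The authors deposited raw read counts per gene for 8 libraries. Per the submitters' processing notes the genome build was GRCm38.p4 and the tools were TopHat2 (version 2), SAMtools, HTSeq and DESeq2, with no role given. Neither the annotation release nor the strand setting of the counting is given in the sources used here. GENCODE M21 named 45143 of 46078 identifiers. Of all reads, 6.63 to 10.8% lay in no gene, 2.72 to 3.01% in several and 26.2 to 30.6% aligned to several places, and these tallies were left out.

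Tests on the counts used edgeR 4.0.16 in R 4.3.3 (TMM factors, filterByExpr with a minimum count of 10 on the 4 groups of condition and experiment, quasi-likelihood F-test, Benjamini-Hochberg adjustment over 17748 genes, threshold 0.05). The model for conditions and experiments had a term for each (5 residual degrees of freedom). A model of 4 groups of 2 libraries, each assumed to vary like the others (4 residual degrees of freedom), gave the effects within experiments and their difference, taken as experiment 2 minus experiment 1. SE is the log2 fold change divided by the square root of F. The steps were tested on simulated data, with changes added only to genes well above the count filter. Genes with few counts were not covered by that. Alternatives were RLE size factors, no filter, a filter on the 2 conditions, DESeq2 1.42.0, a replicate block, no experiment term and left-out libraries. Transcript matches came from blastn 2.17.0 (at least 50 bases).

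The members, lists and alternatives were chosen with earlier results of these data known. Named genes are the 10 members, list genes called in a comparison or otherwise the 2 highest in CPM, and the 5 genes most like each of 2 scores; any other name was chosen after its values were seen.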

Additional observations from a re-analysis of the deposited data

Results flagged for a closer look

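Krt82, the cuticle keratin of the shaft, had 1 library far from the other 3 in each condition. It stood at 0.293 CPM (8 counts) in Treg-sufficient replicate 1 and at 0 to 0.0335 CPM in the other Treg-sufficient libraries. In Treg-depleted replicate 3 it stood at 0.0385 CPM, a single count, against 0 in the other 3, which is under the 0.116 CPM that a count of 0 allows in that library. In groups with a continuous spread, chance sets a library apart this way in about 1 group in 20, but a single count against 3 values of 0 always does, so that rate says nothing here.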

How the results depend on the processing

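Counts of calls depended on the setting more than the direction of the log2 fold changes did. Between conditions over both experiments, edgeR called 0 genes; without a filter on low counts it called 820 genes and 5 members, DESeq2 called 87 genes, and 1 gene was called without both libraries with the fewest genes. Within experiment 1, 122 genes and 1 member became 1152 and 6 without a filter, 722 and 2 with DESeq2, 585 and 4 without both libraries with raised Xist, and 646 and 2 without both libraries with the fewest genes. Within experiment 2, 0 became 132 genes and 5 members without a filter and 3 genes with DESeq2. For the difference between these effects, 0 became 534 genes and 4 members without a filter, 181 and 1 with DESeq2, and 183 and 1 without both libraries with raised Xist. Between experiments, 277 genes and 2 members became 2443 and 7 without a filter, 2164 and 6 with DESeq2, 3 and 0 without both libraries with raised Xist, and 2 and 0 without both libraries with the fewest genes. The cause was not tested. The last 2 settings, and the filter on the 2 conditions, were chosen after seeing the data.

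Title letters A to D were shared by the conditions. Deviations from the condition mean, which include the shift between experiments, had r of only 0.157, 0.116, 0.085 and 0.277 between same-lettered libraries. By deviations from the mean of each condition and experiment, r was -0.084 for A and B and -0.104 for C and D. On the first measure 2 of the 4 letters were the best match for their own library, so the letters are taken as names. With the letter as a replicate block, 2 genes and 0 members were called within experiment 1 (Krt35 -6.11, adjusted p = 0.0566; Cux1 and Cenpf, both called without it, adjusted p = 0.0572), and Tchh within experiment 2 turned to 0.043.

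Leaving out 1 library at a time gave 0 to 1 genes and 0 members over both experiments, 29 to 499 genes (499 without Treg-depleted replicate 2) and 0 to 3 members within experiment 1, 0 and 0 within experiment 2, 0 to 46 genes and 0 members for the difference between effects, and 0 to 723 genes (723 without Treg-sufficient replicate 1) and 0 to 5 members between experiments. Differences that changed sign ran as follows. For the difference between effects, Krt25 ran from -1.09 to 3.04, Krt71 from -0.97 to 1.13 (and -0.19 without both libraries with the fewest genes), Krt73 from -0.43 to 1.93, Krt31 from -1.004 to 1.35 and Tchh from -0.27 to 1.44. Within experiment 1, Krt27 ran from -0.34 to 0.82. Within experiment 2, Krt31 ran from -0.61 to 1.74, Krt75 from -0.62 to 0.46 and Tchh from -0.73 to 0.97. Between experiments, Krt31 ran from -0.23 to 0.59 and Tchh from -0.21 to 0.43. Over both experiments, Tchh ran from -0.58 to 0.069. Krt28, Krt71, Krt73, Krt25 and Krt35 kept their sign between conditions and between experiments under every alternative run, although Krt71 came as near to 0 as -0.08 within experiment 1 and -0.12 within experiment 2.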
